A study of Mus musculus with 3 samples.

Results

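The 10 genes described here are Fos, Fosb, Fosl2, Jun, Junb, Jund, Atf3, Egr1, Ier2 and Dusp1, taken from the 27998 genes of 3 single-cell RNA libraries of mouse lung by exact match of the gene symbol, which found all 10. Each group was 1 library. FLASH was lung after 17 Gy to the thorax delivered at ultra-high dose rate, CONV was lung after 17 Gy at conventional dose rate, and NI was lung of a non-irradiated control. Per the labels, the animals were C57BL/6 females of 10 to 12 weeks, irradiated with 4.5 MeV electrons under isoflurane, and lungs were dissociated enzymatically, filtered at 100 and 40 µm and freed of red blood cells by lysis. How many mice made up each library, and how long after irradiation they were sampled, is not given in the sources used here.

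AP-1 is a dimer of basic leucine zipper proteins, in which a Fos family protein pairs with a Jun family protein, or Jun proteins pair with each other or with ATF family proteins. Fos, Fosb, Jun, Junb, Atf3, Egr1, Ier2 and Dusp1 are immediate early genes, transcribed within minutes of growth factor, cytokine or stress signalling through MAP kinases and without new protein synthesis, whereas Jund is made more steadily. In lung, AP-1 is known from responses to oxidants, radiation and inflammatory signals, and enzymatic dissociation of a tissue is itself known to induce many of these genes.

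The 3 libraries held 2394 FLASH, 2507 CONV and 1761 NI barcodes, with 5498902, 7463259 and 7114360 unique molecular identifiers (UMIs, each standing for a captured RNA molecule). After filtering, 2252, 2387 and 1705 cells were kept, with medians of 1796, 2351 and 2942 UMIs. Cells were clustered with the 10 genes left out, and 13 marker-defined classes with at least 25 cells in each library, 5217 cells in all, were compared. Names end in "-like" because they rest on markers alone, and all of a class's own markers were detected in each library, except 1 of 8 in CONV capillary endothelium-like cells. Clusters with thymocyte markers, 97 named cells and an unnamed cluster of 220, held NI cells only, so whole-library levels mix this difference in cell makeup with differences within cells. Whole-library Fos was 1263 CPM (UMIs per 1000000 UMIs) in FLASH, 1099.6 CPM in CONV and 1014 CPM in NI, whereas over the 13 compared classes it was 1223, 1072 and 1314 CPM. All comparisons below are therefore within classes. Median depth per cell was highest in NI in all 13 classes. Sftpc, the surfactant gene of alveolar type 2 (AT2) cells, was lower in NI than in both irradiated libraries in each of the 12 other classes, for example at 2296 CPM in FLASH, 3417 CPM in CONV and 1129.8 CPM in NI monocytes, and the part of free RNA in the results was not tested.

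The promoters of 4 members carried, on either strand, letters that ATF, CREB and Jun proteins are known to bind, and only these 4 are shown. The 4 are immediate early genes, as are Fosb and Junb, whose windows were searched and held no match. RefSeq promoter windows (GRCm38.p6) were found for 8 of the 10 members, and the 250 bases before each annotated start were searched for TGACGT, TGACATCA and TGANTCA on both strands. Capitals mark the matches, and each sequence runs 5' to 3' on the gene's own strand.
Fos, chr12:85473640-85473889, plus strand: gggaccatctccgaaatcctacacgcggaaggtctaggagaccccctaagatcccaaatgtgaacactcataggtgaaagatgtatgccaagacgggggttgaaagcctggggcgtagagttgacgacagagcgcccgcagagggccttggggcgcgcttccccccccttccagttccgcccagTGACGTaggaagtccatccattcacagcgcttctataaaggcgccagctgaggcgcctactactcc
Jun, chr4:95052223-95052472, minus strand: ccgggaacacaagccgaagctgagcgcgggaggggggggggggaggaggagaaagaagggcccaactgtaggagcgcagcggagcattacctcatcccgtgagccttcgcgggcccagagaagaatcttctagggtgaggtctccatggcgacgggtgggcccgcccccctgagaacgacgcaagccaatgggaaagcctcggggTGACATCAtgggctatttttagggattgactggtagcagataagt
Atf3, chr1:191183334-191183583, minus strand: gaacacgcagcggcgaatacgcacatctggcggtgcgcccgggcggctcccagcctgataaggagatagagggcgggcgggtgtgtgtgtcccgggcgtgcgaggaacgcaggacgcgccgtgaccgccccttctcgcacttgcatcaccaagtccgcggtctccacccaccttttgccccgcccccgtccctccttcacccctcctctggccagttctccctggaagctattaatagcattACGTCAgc
Dusp1, chr17:26508523-26508722, minus strand: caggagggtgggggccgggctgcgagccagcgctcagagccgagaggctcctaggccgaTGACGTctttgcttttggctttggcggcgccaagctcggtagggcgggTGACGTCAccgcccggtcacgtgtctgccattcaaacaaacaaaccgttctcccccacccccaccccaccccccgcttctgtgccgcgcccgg
The Fos match TGACGT lay 66 to 61 bases before the start. The Jun match TGACATCA lay 45 to 38 bases before it. In the Atf3 window the letters were on the opposite strand and read ACGTCA, 8 to 3 bases before the RefSeq start. The 7 bases next to that start are annotated as untranslated exon of another Atf3 transcript, and the match runs into them. Dusp1 held TGACGT 191 to 186 bases before its start, and a palindrome 143 to 136 bases before it in which matches on both strands overlap. The 50 bases next to the Dusp1 start are not shown, because 47 of them are annotated as untranslated exon of another transcript. The same letters occur widely: TGACGT was in 6.47%, TGANTCA in 6.75% and TGACATCA in 2.93% of 32851 RefSeq windows of this length. No match was found in the Fosb, Fosl2, Junb and Jund windows, and TGANTCA was in none of the 8. All 250 bases of the Fosl2 window are annotated as untranslated exon of another Fosl2 transcript. RefSeq and GENCODE place the start differently for Atf3 (by 34706 bases), Dusp1 (53656), Jund (1210), Fosl2 (671), Junb (30) and Fosb (6). The Jund window thus lies upstream of the GENCODE gene start given below. Matches and their absence therefore describe the windows at the RefSeq starts only.

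Within classes, most members were lower in both irradiated libraries than in NI, Jund was mostly higher, and more pairs of gene and class were lower in CONV than in FLASH. Such a pair was called higher or lower when the CPM ratio passed 1.5-fold and the libraries compared held at least 20 UMIs of the gene. In FLASH over NI, 5 pairs were higher and 26 lower of 122, against 12.1% higher and 15.8% lower among all genes tested in the same classes. Under trimmed-mean (TMM) scaling the split was 10 higher and 27 lower. In CONV over NI, 6 pairs were higher and 45 lower of 122, against 14.2% and 14.4% of all genes. The median ratio of the members was 0.856 in FLASH over NI and 0.789 in CONV over NI. Setting FLASH against CONV, 16 pairs were higher and 2 lower of 121, against 8.49% and 11.3% of all genes, with a median ratio of 1.13. With each cell thinned to 1000 UMIs this became 17 higher and 11 lower of 113, a lower share of 9.73% that is near that of all genes. Without smooth muscle-like cells it was 10 higher and 1 lower of 112, a higher share of 8.93% that is near that of all genes. The class medians of all genes' log2 ratios lay between -0.19 and 0.09 in FLASH over NI, between -0.11 and 0.12 in CONV over NI and between -0.10 and -0.01 in FLASH over CONV. FLASH over NI and CONV over NI share the NI library, so their likeness is not evidence beyond that library. With 1 library per group there is no replicate error and no test. Intervals in brackets are 95% intervals for counting error only, and all differences are differences between these libraries.

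Against NI, pairs with deep counts also held a larger lower share than all genes. Their higher share in FLASH over NI, 4.0%, was near that of all genes. Among pairs with at least 200 UMIs, 3 of 75 were higher and 17 lower in FLASH over NI, against 4.77% higher and 5.49% lower of all genes at that depth. In CONV over NI, 3 of 81 were higher and 30 lower, against 5.65% and 6.47%. Every one of these higher pairs, 3 in FLASH and 3 in CONV, was Jund. In FLASH over CONV, 5 of 73 were higher and 0 lower, against 1.1% and 0.872%, and the 5 were Fos in smooth muscle-like and B-like cells, Atf3 in interstitial macrophage-like cells, Egr1 in AT2-like cells and Dusp1 in adventitial fibroblast-like cells.

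**Figure D1:**
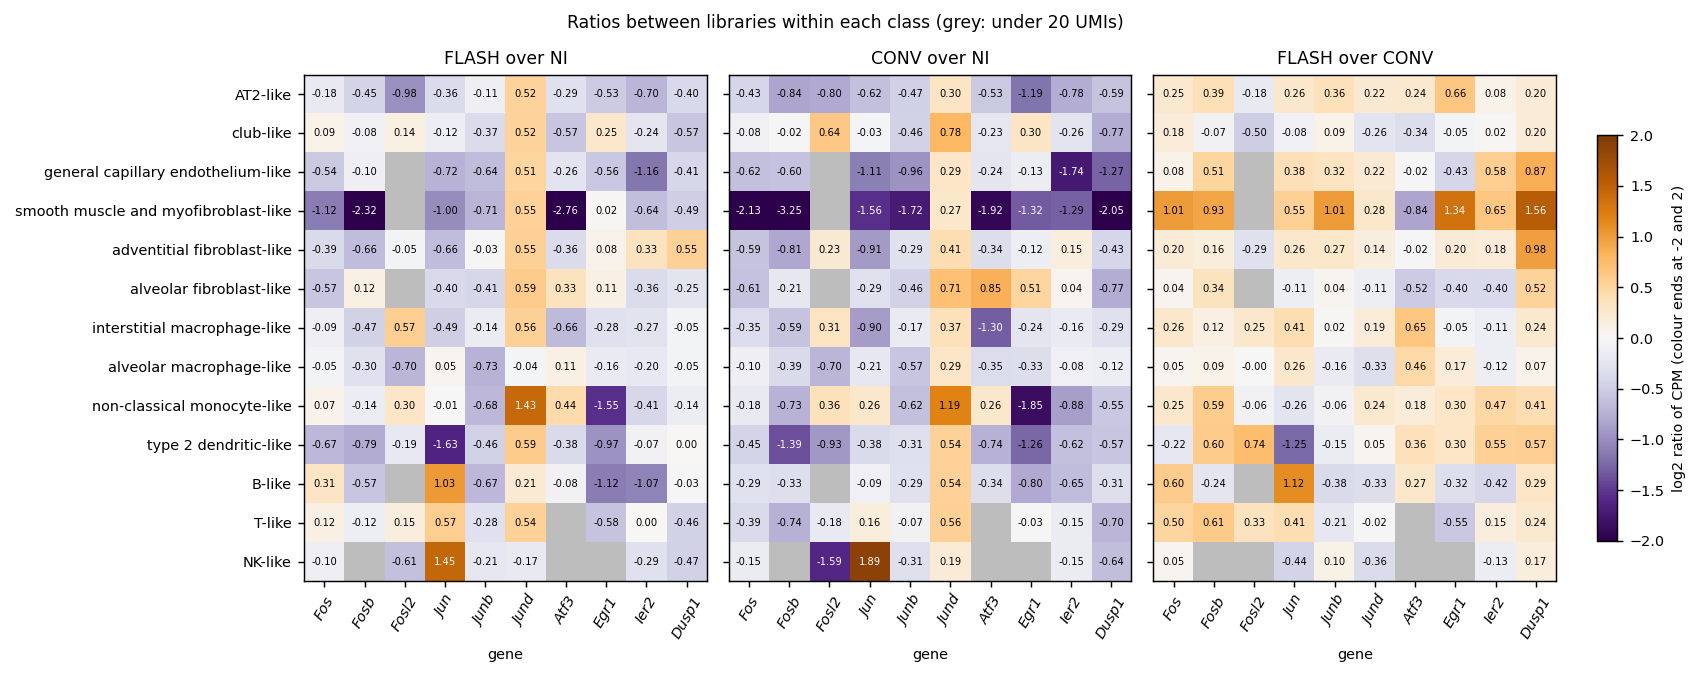
Log2 ratios of CPM for the 10 genes (columns) in 13 classes (rows), with FLASH over NI on the left, CONV over NI in the middle and FLASH over CONV on the right. Purple cells are lower and orange cells higher in the first library named, and grey cells had under 20 UMIs. The Jund column is above 0 in 11 of 13 classes for FLASH over NI and in 13 of 13 for CONV over NI, while Junb is below 0 in all 13 in both (12 under TMM scaling).

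Fos, the founding Fos family gene (ENSMUSG00000021250, mm10 chr12:85473890-85477273, plus strand), was highest in interstitial macrophage-like cells in FLASH and CONV and in smooth muscle-like cells in NI. In interstitial macrophage-like cells its level was 2635 CPM in FLASH (2412 to 2872), 2205 CPM in CONV (2015 to 2409) and 2814 CPM in NI (2542 to 3107). In smooth muscle-like cells it was 2039.9 CPM in FLASH (1693 to 2437), 1016 CPM in CONV (831 to 1230.2) and 4443 CPM in NI (4043 to 4872). The smooth muscle-like levels are all apart from each other beyond counting error, with FLASH over NI at 0.459 (0.372 to 0.562), CONV over NI at 0.229 (0.183 to 0.283) and FLASH over CONV at 2.01 (1.53 to 2.63). General capillary endothelium-like, AT2-like, alveolar fibroblast-like and adventitial fibroblast-like cells followed in FLASH, between 1399.6 and 1831 CPM, and in NI, between 1992 and 2408 CPM. In CONV these 4 classes, between 1324 and 1570.5 CPM, stood above smooth muscle-like cells. In NI, the intervals of neighbouring classes in this group of 4 overlap, so their order is not separated. Club-like and monocyte-like cells were next in NI, at 959.7 and 880.0 CPM, with overlapping intervals, and B-like, T-like and NK-like cells were lowest. NK-like cells had 248 CPM in FLASH, 239 CPM in CONV and 266 CPM in NI, and these levels overlap in their intervals.

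Fos was lower than in NI in 9 of 13 classes in FLASH and in all 13 in CONV, with 2 and 4 lower calls. The FLASH calls were 15.4% of its pairs, near the 15.8% of all genes. The CONV calls were 30.8%, against 14.4% of all genes. Besides smooth muscle-like cells, the lower call of FLASH over NI was in type 2 dendritic-like cells, at 0.627 (0.485 to 0.803). Levels there were 491 CPM in FLASH, 573 CPM in CONV and 784 CPM in NI. AT2-like cells, the deepest class for Fos with 1950 FLASH, 2427 CONV and 1831 NI UMIs, had 1831, 1540.3 and 2073 CPM. There FLASH over NI was 0.883 (0.828 to 0.942), CONV over NI 0.743 (0.699 to 0.790) and FLASH over CONV 1.19 (1.12 to 1.26), none of them past 1.5-fold. FLASH was above CONV in 12 of 13 classes, and past 1.5-fold in smooth muscle-like cells and in B-like cells, where the level was 620.3 CPM in FLASH, 409 CPM in CONV and 501 CPM in NI.

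The share of cells with a Fos UMI was compared after every cell was thinned to 1000 UMIs. In smooth muscle-like cells it was 53.1% in FLASH (34.7 to 70.9), 32.6% in CONV (19.5 to 48.0) and 56.7% in NI (37.4 to 74.5), against 54.5%, 43.5% and 70.0% before thinning. The FLASH and NI shares overlap, while a thinned cell with Fos held on average 4.59 UMIs in FLASH, 3.20 in CONV and 8.12 in NI. In NK-like cells, the class with the lowest Fos level in all 3 libraries, the thinned share was 17.0% in FLASH, 16.9% in CONV and 15.9% in NI, at median depths of 1264, 1762 and 2406 UMIs. Interstitial macrophage-like cells stood above these shares, at 77.5% in FLASH, 77.3% in CONV and 93.1% in NI.

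Fosb, a Fos family gene with early induction like that of Fos (ENSMUSG00000003545, mm10 chr7:19302696-19310051, minus strand), was lower in CONV than in NI in 12 of 12 tested classes, with 8 lower calls, and in FLASH in 11 of 12, with 3 lower calls. AT2-like cells had 613 CPM in FLASH, 469 CPM in CONV and 838 CPM in NI. The CONV over NI ratio there was 0.560 (0.505 to 0.621) and the FLASH over NI ratio 0.732 (0.658 to 0.814). The widest gap was in smooth muscle-like cells, with 202 CPM in FLASH, 106 CPM in CONV and 1013 CPM in NI, on 12, 11 and 103 UMIs. Fosl2, which encodes the Fos family protein FRA2 (ENSMUSG00000029135, mm10 chr5:32135801-32157842, plus strand), had a different class order. Alveolar macrophage-like cells led in NI, where Fosl2 was 259 CPM in FLASH (213 to 312), 259.9 CPM in CONV (215 to 311) and 422 CPM in NI (344 to 512), a FLASH over NI ratio of 0.614 (0.465 to 0.812) and a CONV over NI ratio of 0.616 (0.470 to 0.810). Monocyte-like cells did not show this, at 220.1 CPM in FLASH, 230.1 CPM in CONV and 179 CPM in NI, with overlapping intervals. Only 9 classes had 20 UMIs of Fosl2 in both comparisons with NI, and in those it was below NI in 5 in FLASH and in 5 in CONV.

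**Figure D2:**
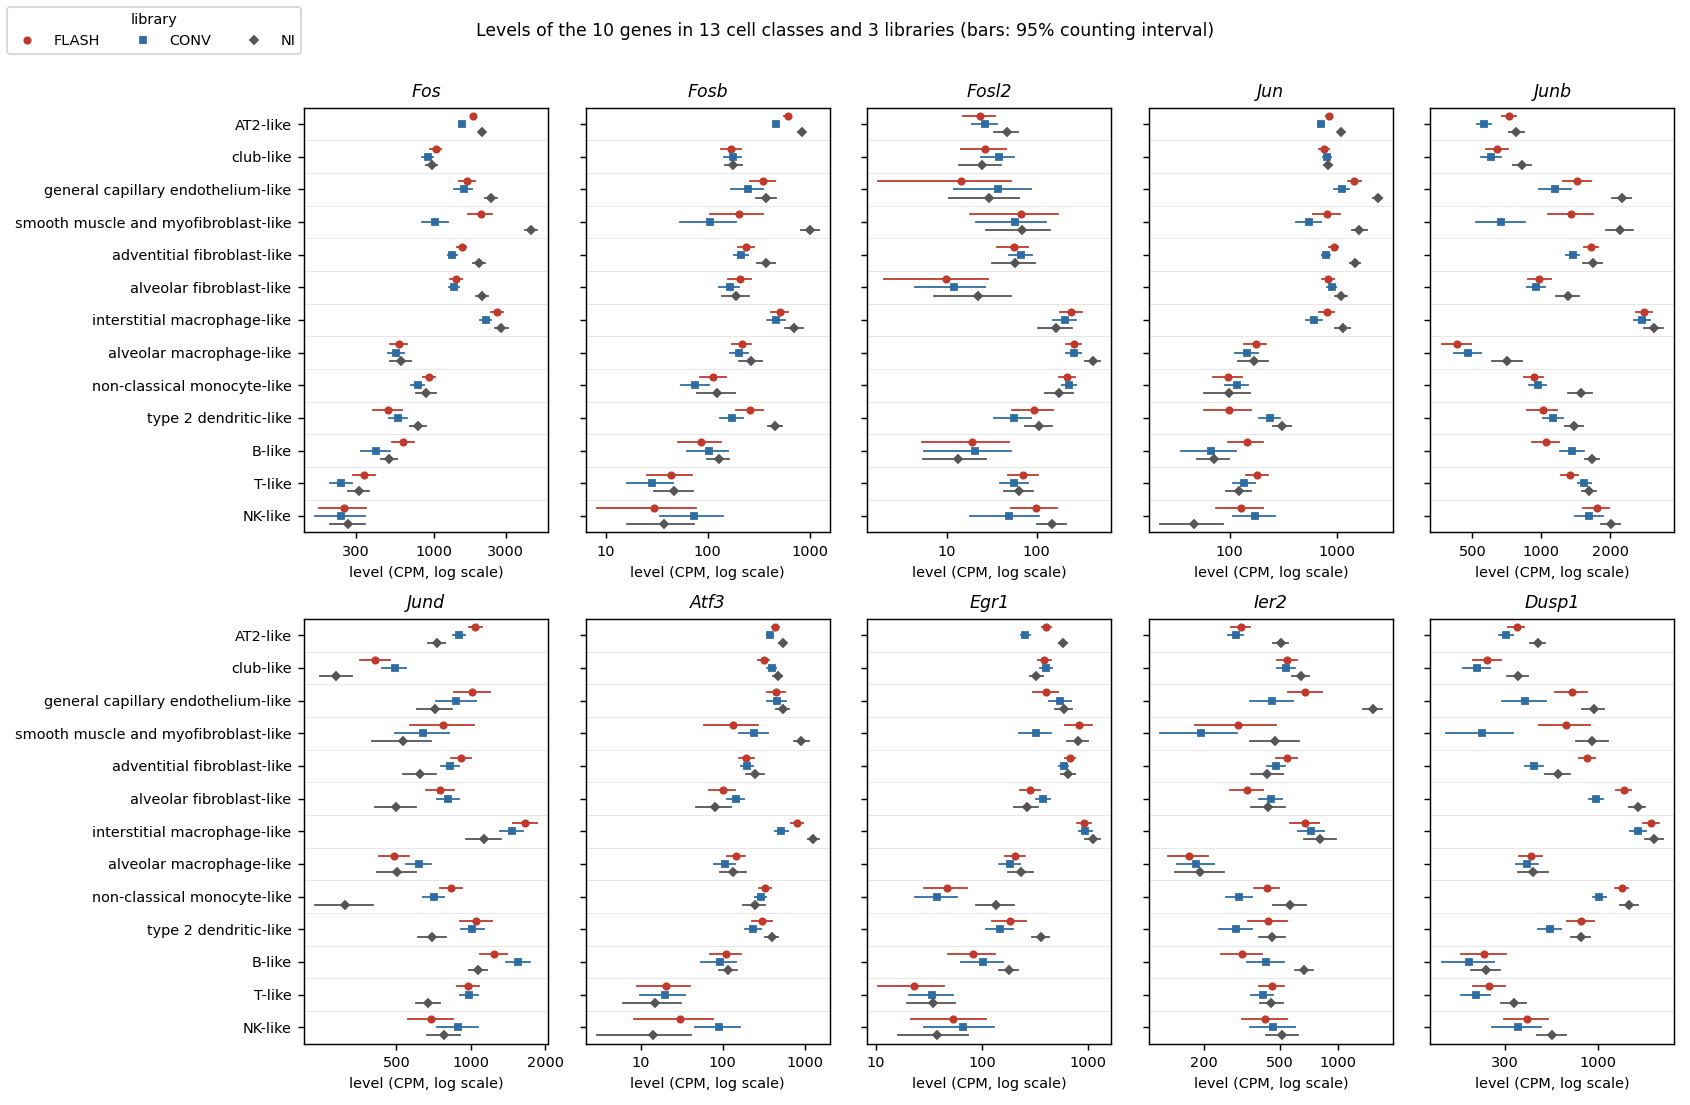
Level of each gene in CPM (horizontal, log scale, its own range in each panel) in 13 classes (vertical) for FLASH (red circles), CONV (blue squares) and NI (grey diamonds). Lines are 95% counting intervals of 1 library each. In the Fos panel the smooth muscle-like points sit at 2039.9, 1016 and 4443 CPM, and in the Jund panel the NI point is lowest in 11 of 13 classes.

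Jun, the c-Jun gene (ENSMUSG00000052684, mm10 chr4:95049034-95052222, minus strand), is a main partner of Fos and had its highest NI levels in endothelium-like and stromal classes. General capillary endothelium-like cells had 1453 CPM in FLASH (1259.6 to 1667), 1114 CPM in CONV (943 to 1308) and 2399 CPM in NI (2192 to 2620.1). Both irradiated libraries were below NI beyond counting error, with ratios of 0.606 (0.512 to 0.715) in FLASH and 0.465 (0.384 to 0.559) in CONV. Adventitial fibroblast-like cells had 938 CPM in FLASH, 786 CPM in CONV and 1478 CPM in NI, and smooth muscle-like cells 809, 552 and 1622 CPM. Jun was called lower in 4 classes in FLASH and in 5 in CONV. In type 2 dendritic-like cells the libraries were ordered differently, at 99.5 CPM in FLASH (17 UMIs), 236 CPM in CONV (80 UMIs) and 308 CPM in NI (107 UMIs). FLASH over CONV was 0.421 there (0.234 to 0.717), 1 of the 2 lower calls of that comparison. Lymphocyte classes, where Jun was scarce, held the 3 pairs of Jun above NI past 1.5-fold. NK-like cells had 128 CPM in FLASH, 173 CPM in CONV and 46.6 CPM in NI, on 17, 21 and 10 UMIs, and B-like cells had 144, 66.4 and 70.8 CPM, on 30, 13 and 37 UMIs, so that FLASH alone was called higher there. Sftpc in NK-like cells was 2711 CPM in FLASH, 8300.1 CPM in CONV and 1073 CPM in NI, and its part in the Jun values was not tested.

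Junb, a Jun family gene often found to oppose c-Jun in proliferation (ENSMUSG00000052837, mm10 chr8:84974484-84978718, minus strand), was below NI in all 13 classes in FLASH and in all 13 in CONV, and in 12 of 13 in each under TMM scaling. The smallest gap of FLASH over NI was in adventitial fibroblast-like cells, with 1648 CPM in FLASH, 1370.0 CPM in CONV and 1677 CPM in NI, where FLASH over NI was 0.982 (0.873 to 1.11) and 1.04 without the cell richest in Junb. In the finer cluster of that class that kept the adventitial name, FLASH over NI was 0.725 (0.608 to 0.863). The 2 unnamed finer clusters had values above NI in both irradiated libraries, at 1484 CPM in FLASH, 1109 CPM in CONV and 1021 CPM in NI in the larger and 1880.4, 1161 and 591 CPM in the smaller, the last on 9 UMIs of 5 NI cells. Junb was called lower in 5 classes in FLASH and in 3 in CONV. Monocyte-like cells had 924 CPM in FLASH, 965 CPM in CONV and 1483 CPM in NI, with ratios over NI of 0.623 (0.533 to 0.730) in FLASH and 0.651 (0.562 to 0.756) in CONV. Alveolar macrophage-like cells had 426 CPM in FLASH, 476 CPM in CONV and 708 CPM in NI. B-like cells had 1043 CPM in FLASH, 1359 CPM in CONV and 1666 CPM in NI, so the lower call there was FLASH over NI at 0.626 (0.537 to 0.728). Interstitial macrophage-like cells had the highest Junb level and the smallest gap of the myeloid classes, at 2809, 2765 and 3102 CPM. Junb overlaps Prdx2 on the opposite strand, and whether counting used strand is not given in the sources used here.

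Jund (ENSMUSG00000071076, mm10 chr8:70698949-70700616, plus strand), the Jun family gene known for steady expression and for restraining proliferation, differed in the other direction. It was above NI in 11 of 13 classes in FLASH, with a median ratio of 1.45, and in all 13 in CONV, with a median ratio of 1.33. The largest ratio was in monocyte-like cells, with 834 CPM in FLASH (750.0 to 925), 708 CPM in CONV (640.0 to 782) and 309.6 CPM in NI (235 to 401), on 360, 394 and 57 UMIs. FLASH over NI was 2.69 (2.03 to 3.63) and CONV over NI 2.29 (1.73 to 3.08). Alveolar fibroblast-like cells had 750.1 CPM in FLASH, 811 CPM in CONV and 497 CPM in NI, called higher in both. Type 2 dendritic-like cells had 1053, 1016 and 698 CPM, and club-like cells had 409.5, 491 and 286 CPM. The exceptions in FLASH were NK-like cells, at 691 CPM in FLASH, 889 CPM in CONV and 779 CPM in NI, and alveolar macrophage-like cells, at 490.0, 615 and 504 CPM, both overlapping with NI. FLASH and CONV did not differ past 1.5-fold in any class for Jund, and FLASH was the higher of them in 7 of 13. Finer clusters of interstitial macrophage-like cells differed for Jund. The cluster with 15 NI cells had 1409 CPM in FLASH, 1182 CPM in CONV and 1240 CPM in NI, with overlapping intervals and CONV below NI. The cluster with 14 NI cells had 1890, 1795 and 1009 CPM. In capillary endothelium-like cells CONV over NI was 1.22, and 1.03 without the cell richest in Jund in each library.

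The monocyte-like class mixed cell kinds, since markers of classical monocytes summed to 3183 CPM in FLASH, 2565 CPM in CONV and 3498 CPM in NI beside 2513, 2382 and 2683 CPM for non-classical markers. In finer clusters the Jund difference was present in both kinds. The finer non-classical cluster (103 FLASH, 113 CONV and 34 NI cells) had 829, 627 and 394 CPM, and the finer classical cluster (118, 110 and 27 cells) had 837, 781 and 247 CPM. Ratios over NI were 2.10 (1.42 to 3.21) in FLASH and 1.59 (1.08 to 2.42) in CONV for the non-classical cluster, and 3.39 (2.25 to 5.31) and 3.17 (2.11 to 4.95) for the classical cluster. After thinning, a Jund UMI was found in 52.3% of FLASH (45.5 to 59.0), 54.7% of CONV (47.9 to 61.4) and 24.6% of NI monocyte-like cells (14.5 to 37.3), against 69.7%, 77.6% and 52.5% before thinning. Median depths there were 1899, 2418 and 2911 UMIs. In club-like cells, the class with the lowest Jund level, the thinned shares were 35.0%, 39.3% and 18.8%, at median depths of 12658, 12001 and 23927 UMIs.

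The makeup of the Jun family differed between the libraries. Jund made up 35.2% of the UMIs of Jun, Junb and Jund in FLASH, 36.3% in CONV and 22.95% in NI, as means over the 13 classes. Its share was above NI in 12 of 13 classes in FLASH and in 13 of 13 in CONV. In monocyte-like cells it was 44.9% in FLASH, 39.6% in CONV and 16.4% in NI, and in smooth muscle-like cells 26.4%, 34.4% and 12.2%. NK-like cells were the exception in FLASH, at 27.0% against 27.5% in NI, with 33.1% in CONV. Junb made up 45.0% in FLASH, 44.1% in CONV and 53.6% in NI, above NI in 1 class in each. These are shares of captured molecules at the 3' end, compared between libraries and not between genes.

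**Figure D3:**
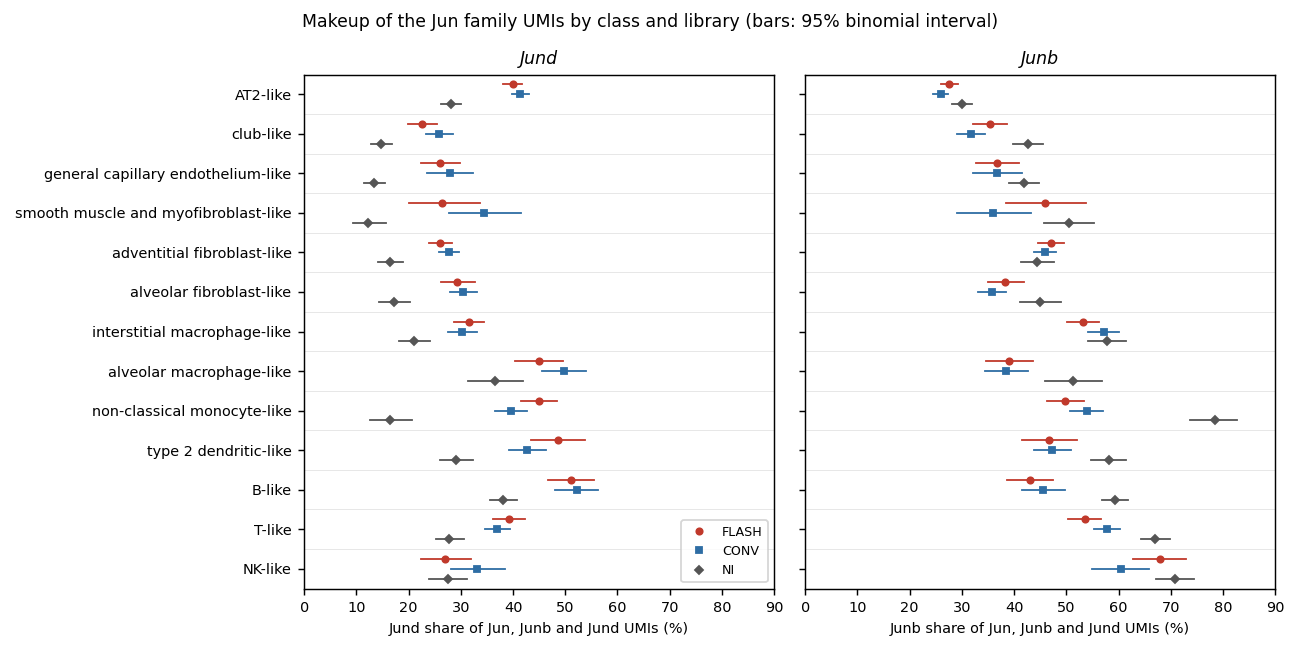
Share of Jund (left) and Junb (right) in the summed UMIs of Jun, Junb and Jund, in percent, in 13 classes for FLASH (red circles), CONV (blue squares) and NI (grey diamonds). Lines are 95% binomial intervals. The NI points lie lowest for Jund in 12 classes, with monocyte-like cells at 44.9% in FLASH, 39.6% in CONV and 16.4% in NI.

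Atf3, which encodes a stress-induced ATF family protein that pairs with Jun proteins (ENSMUSG00000026628, mm10 chr1:191170296-191218039, minus strand), was concentrated in interstitial macrophage-like cells. It was 812 CPM in FLASH (691 to 948), 519 CPM in CONV (429 to 622) and 1281 CPM in NI (1099.7 to 1484) there. These 3 levels are apart in their intervals, with FLASH over NI at 0.634 (0.509 to 0.789), CONV over NI at 0.405 (0.318 to 0.515) and FLASH over CONV at 1.56 (1.22 to 2.01). In smooth muscle-like cells Atf3 was 135 CPM in FLASH, 242 CPM in CONV and 914 CPM in NI, on 8, 25 and 93 UMIs. This was the other lower call of FLASH over CONV, at 0.557 (0.217 to 1.27). A single cell held 62.5% of these UMIs in FLASH, 44.0% in CONV and 28.0% in NI. FLASH over CONV was 0.367 without the richest cell of each library. Alveolar fibroblast-like cells held the higher call of Atf3, with 101 CPM in FLASH, 144 CPM in CONV and 79.9 CPM in NI, and CONV over NI at 1.81 (1.07 to 3.22) on 71 and 18 UMIs. In T-like cells, where the level was lowest in the irradiated libraries, a thinned cell held an Atf3 UMI in 2.26% of FLASH, 1.99% of CONV and 2.26% of NI cells, against 44.9%, 36.4% and 58.6% in interstitial macrophage-like cells at median depths of 1954, 2384 and 4465 UMIs. Median depths in T-like cells were 1433, 1777 and 2505 UMIs.

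Egr1, a zinc finger factor downstream of ERK signalling (ENSMUSG00000038418), differed between FLASH and CONV in AT2-like cells. It was 399.9 CPM in FLASH (363 to 439.7), 254 CPM in CONV (229.6 to 280.0) and 577 CPM in NI (528 to 629.7), so FLASH lay between the others. FLASH over CONV was 1.58 (1.37 to 1.81), CONV over NI 0.440 (0.385 to 0.502) and FLASH over NI 0.693 (0.608 to 0.789). Both finer AT2-like clusters gave the same order, with FLASH over CONV at 1.51 (1.26 to 1.81) and 1.63 (1.31 to 2.04). An Egr1 UMI was found in 34.2% of FLASH, 20.3% of CONV and 43.7% of NI AT2-like cells after thinning, and in 60.6%, 49.8% and 80.7% before, at median depths of 3192, 3863 and 6466 UMIs. T-like cells, with the lowest Egr1 level, were at 2.26%, 2.66% and 5.08% after thinning. In monocyte-like cells Egr1 was low in both irradiated libraries, at 46.3 CPM in FLASH (20 UMIs), 37.7 CPM in CONV (21 UMIs) and 136 CPM in NI (25 UMIs). The finer non-classical cluster had 64.2, 19.0 and 229 CPM, on 11, 5 and 18 UMIs. The finer classical cluster had 34.6, 54.6 and 66.4 CPM, on 9, 16 and 7 UMIs, with overlapping intervals. Type 2 dendritic-like cells had 181, 148 and 355 CPM, and B-like cells 81.7, 102 and 178 CPM, called lower in both. Adventitial fibroblast-like cells had 676 CPM in FLASH, 589 CPM in CONV and 641 CPM in NI, with overlapping intervals between FLASH and NI and between CONV and NI.

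Ier2, an immediate early gene that encodes a nuclear protein (ENSMUSG00000053560, mm10 chr8:84661331-84662852, minus strand), was highest in NI capillary endothelium-like cells. It was 679.8 CPM in FLASH (550.0 to 831), 456 CPM in CONV (349 to 586) and 1523 CPM in NI (1359 to 1701), with a FLASH over NI ratio of 0.446 (0.351 to 0.563) and an upper limit of 0.395 for CONV over NI. B-like cells had 317 CPM in FLASH, 424 CPM in CONV and 667 CPM in NI, and AT2-like cells 312, 294 and 505 CPM, each called lower in both. T-like cells were at 452, 406 and 451 CPM, with overlapping intervals. In all, Ier2 was below NI in 11 of 13 classes in FLASH and in 11 of 13 in CONV, with 4 and 6 lower calls.

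Because the endothelium-like class held fewer capillary markers in the irradiated libraries, its values were also taken in finer clusters. The general capillary marker list summed to 5639 CPM in FLASH, 5915 CPM in CONV and 9843 CPM in NI, and the macrovascular list to 4186, 4831 and 2924 CPM. A finer capillary-like cluster held 38 FLASH, 12 CONV and 50 NI cells. It had Jun at 2123, 758 and 3009 CPM and Ier2 at 837, 142 and 1891 CPM. The CONV value of Ier2 there rested on 3 UMIs. Another finer cluster, led by Slc6a2 and Vwf (24, 29 and 12 cells), was also named general capillary endothelium by the naming rule. It did not follow the class for Fos, at 679 CPM in FLASH, 1936 CPM in CONV and 549.6 CPM in NI. Its Jun was at 905, 1179 and 1067 CPM. The finer macrovascular-like cluster (24, 18 and 14 cells) had Ier2 at 816, 499 and 1135 CPM and Fos at 2319, 1519 and 3253 CPM. Ier2 was thus below NI in the 3 finer clusters in both irradiated libraries, while Fos was above NI in both, and Jun in CONV, in the cluster led by Slc6a2 and Vwf. In the capillary-like cluster with 50 NI cells, Jund was 1870 CPM in FLASH, 521 CPM in CONV (11 UMIs) and 971 CPM in NI. Its direction against NI in CONV was thus opposite there to that in the whole class. The part of endothelial makeup in the class values was not tested further.

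Dusp1, which encodes the phosphatase MKP-1 that switches off JNK and p38 and is itself induced by them (ENSMUSG00000024190, mm10 chr17:26505590-26562128, minus strand), was above CONV in FLASH in more classes than any other member. It was higher in FLASH than in CONV in 13 of 13 classes, past 1.5-fold in 3, and Fos was higher in 12 of 13. With cells thinned to 1000 UMIs, Dusp1 was higher in 11 of 13 classes and lower in 2. Fos was then lower in 1, so the lead of Dusp1 was not kept. Dusp1 was below NI in 11 of 13 classes in FLASH with 0 calls and in 13 of 13 in CONV with 7 lower calls. Adventitial fibroblast-like cells had 866 CPM in FLASH (783 to 954), 438 CPM in CONV (391 to 489) and 591 CPM in NI (501 to 692), a FLASH over CONV ratio of 1.98 (1.70 to 2.30). FLASH was above NI there, at 1.46 (1.21 to 1.77), and CONV below it, at 0.741 (0.609 to 0.905). The class split into 3 finer clusters, of which 1 kept the adventitial name. In it FLASH over CONV was 1.33 (1.03 to 1.71), below 1.5-fold, and CONV over NI was 1.36 (0.986 to 1.89), above NI rather than below. In the 2 unnamed clusters FLASH over CONV was 2.66 (2.16 to 3.28) and 2.04 (1.25 to 3.42), and CONV over NI was 0.549 (0.420 to 0.722) and 0.423 (0.201 to 0.952), the last against 11 UMIs of 5 NI cells. The class's own markers summed to 11021, 10259 and 15949 CPM, and the part of its makeup was not tested. Smooth muscle-like cells had 657 CPM in FLASH, 223 CPM in CONV and 924 CPM in NI, with FLASH over CONV at 2.95 (1.72 to 5.18) on 39 and 23 UMIs. Capillary endothelium-like cells had 708, 389 and 939 CPM. In alveolar fibroblast-like cells Dusp1 was 1389.8 CPM in FLASH, 972 CPM in CONV and 1655 CPM in NI, with CONV over NI at 0.587 (0.512 to 0.674). After thinning, a Dusp1 UMI was in 39.8% of FLASH, 23.8% of CONV and 35.3% of NI adventitial fibroblast-like cells, and in 54.8%, 39.5% and 66.2% before. In B-like cells, among the classes with the lowest level, it was in 21.8%, 14.7% and 21.6% after thinning. Median depths were 1791, 2322 and 3615 UMIs in the fibroblast class and 1259, 1775 and 1910.0 UMIs in B-like cells. Dusp1 overlaps Ergic1 on the opposite strand in the annotation.

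Smooth muscle- and myofibroblast-like cells had the lowest median ratio of the members over NI of the 13 classes and few cells, 33 in FLASH, 46 in CONV and 30 in NI. Several members were lowest elsewhere in FLASH over NI, such as Jun in type 2 dendritic-like cells, Egr1 in monocyte-like cells and Ier2 in capillary endothelium-like cells. Of the 9 genes with enough UMIs, 6 were lower in FLASH over NI and 8 in CONV over NI, and 6 were higher and 1 lower in FLASH over CONV. Of all genes tested in that class, 10.4% were higher and 17.4% lower in FLASH over NI, 13.1% and 15.9% in CONV over NI, and 10.8% and 14.3% in FLASH over CONV. Jund was the gene not called lower in CONV, and Egr1 was 809 CPM in FLASH, 319 CPM in CONV and 796 CPM in NI. Few cells carried these levels: 21 of 30 NI cells held a Fos UMI, and the cell with most held 16.4% of them. The heat shock chaperone list summed to 6086 CPM in FLASH, 7036 CPM in CONV and 4581 CPM in NI, and mitochondrial genes took 3.85%, 4.04% and 4.86% of UMIs. The class's 9 own markers were all detected in each library, at 36297, 34921 and 31958 CPM in sum, pericyte markers summed to 1332, 900.1 and 1671 CPM, with 1, 0 and 0 of 8 at 0, and adventitial markers to 539.5, 193.6 and 1071 CPM, with 4, 3 and 2 of 9 at 0. Their part in the result was not tested. Without this class, FLASH over CONV had 10 higher and 1 lower of 112 pairs (8.93% and 0.893%). The higher share is near the 8.49% of all genes over the 13 classes, and the lower share is below their 11.3%.

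Counted per cell, the members were detected together most often in interstitial macrophage-like cells. A cell thinned to 1000 UMIs held UMIs of 5.45 members on average in FLASH, 5.10 in CONV and 6.21 in NI. AT2-like cells held 4.07, 3.42 and 4.34 members and T-like cells 2.21, 2.22 and 2.40. The members' summed UMIs per 1000 differed most in capillary endothelium-like cells, at 7.68 in FLASH, 6.21 in CONV and 12.3 in NI, and in smooth muscle-like cells, at 8.62, 4.13 and 13.1. The summed level of the members was below NI in 12 of 13 classes in FLASH and in 13 of 13 in CONV.

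Across the 44 combinations of class and library with at least 25 cells, Fos, Jun and Egr1 followed each other, and Junb followed Ier2. Pearson's r of log2(CPM + 10) was 0.87 between Fos and Jun, 0.88 between Fos and Egr1, 0.84 between Fos and Fosb and 0.82 between Junb and Ier2, against 0.16 between Fos and Jund and -0.10 between Fos and Fosl2. Among 2725 other genes, those most like Fos were Zfp36 (r = 0.84), Cd63 (0.78), Nupr1 (0.77), Aldh2 (0.75) and Rhob (0.75). Those most like Atf3 were Zfp36 (0.83), Fkbp2 (0.64), Ccnd1 (0.62), Ifitm2 (0.60) and Mt1 (0.58), and those like Dusp1 included Cst3 (0.77), Ctsb (0.75), Btg2 (0.75) and Nfkbiz (0.74). The points share libraries, depth and cell classes, and the values are descriptions.

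The rest of the pathway was read from lists of related genes, whose counts stand against the same all-gene shares as the members and were not tested against them. Those shares were 12.1% higher and 15.8% lower in FLASH over NI, 14.2% and 14.4% in CONV over NI, and 8.49% and 11.3% in FLASH over CONV. Of other immediate early genes (36 genes), 34 pairs were higher and 66 lower of 310 in FLASH over NI (10.97% and 21.3%), the share of higher pairs being close to that of all genes. The counts were 35 and 92 of 326 in CONV over NI (10.7% and 28.2%) and 43 and 19 of 303 in FLASH over CONV (14.2% and 6.27%). Ppp1r15a, a stress-induced regulator of translation, was lower in 6 of 11 classes in FLASH and in 9 of 11 in CONV, and Zfp36, which encodes an mRNA decay factor, in 3 and 7 of 13. At the extremes, Nfkbiz in T-like cells had 79.2 CPM in FLASH and 12.9 CPM in NI, Klf4 in T-like cells had 29 UMIs in CONV and 1 in NI, a ratio of 23.9 (3.97 to 978), and Egr4 in club-like cells had 0 UMIs in FLASH and 41 in NI. Socs3 in club-like cells had 91.0 CPM in FLASH and 19.0 CPM in CONV. Of other AP-1 and related basic leucine zipper genes (21 genes), 19 pairs were higher and 13 lower of 91 in FLASH over NI (20.9% and 14.3%), and 28 and 17 of 110 in CONV over NI (25.5% and 15.5%). Their lower shares were near those of all genes, and so were both shares in FLASH over CONV, with 7 and 10 of 99 (7.07% and 10.1%). Nfe2l2, which encodes the antioxidant regulator NRF2, was higher in 4 of 12 classes in FLASH and in 4 of 13 in CONV, and its partner gene Mafg in 4 of 7 and 6 of 8. Crem, of the CREB family, was lower in 4 of 7 classes in FLASH and in 5 of 8 in CONV, and in NK-like cells it had 75.1 CPM in FLASH, 49.4 CPM in CONV and 252 CPM in NI.

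Other MAP kinase phosphatases (10 genes) were 2 higher and 11 lower of 29 pairs in FLASH over NI (6.90% and 37.9%), 2 and 13 of 32 in CONV over NI (6.25% and 40.6%) and 3 and 3 of 31 in FLASH over CONV (9.68% each), the last near the all-gene shares. Dusp2 in monocyte-like cells was 119 CPM in CONV and 326 CPM in NI, and Dusp6 in alveolar macrophage-like cells was 70.7 CPM in FLASH, 60.6 CPM in CONV and 28.7 CPM in NI, on 30, 28 and 7 UMIs. Upstream kinases and factors (24 genes) were 10 higher and 16 lower of 117 in FLASH over NI (8.55% and 13.7%), 12 and 13 of 126 in CONV over NI (9.52% and 10.3%) and 7 and 15 of 127 in FLASH over CONV (5.51% and 11.8%). Heat shock chaperones (11 genes) were 11 higher and 7 lower of 102 in FLASH over NI (10.8% and 6.86%). They were 13 and 10 of 106 in CONV over NI (12.3% and 9.43%) and 4 and 6 of 106 in FLASH over CONV (3.77% and 5.66%). The lower shares of the upstream list in FLASH over NI and FLASH over CONV were near those of all genes. So were the higher shares of the chaperones in both comparisons with NI. Hspb1, a small heat shock protein gene, was 2439 CPM in CONV and 924 CPM in NI smooth muscle-like cells, and Hspa1a, which encodes an inducible HSP70, was 98.1 CPM in FLASH and 42.2 CPM in CONV adventitial fibroblast-like cells. The median of the class medians of the log2 ratio in FLASH over NI and CONV over NI was -0.21 and -0.31 for the members, -0.13 and -0.18 for other immediate early genes, 0.11 and 0.22 for other AP-1 and related genes, -0.27 and -0.32 for the phosphatases, and 0.03 and 0.05 for heat shock chaperones.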

How the data were processed

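For 3 libraries the authors deposited raw, unscaled UMI counts for each gene in each barcode. The submitters' processing notes name Cell Ranger 2.0 and mm10, and the labels name 10x Chromium 3' chemistry. Barcodes under 200 genes (50) or above 10% mitochondrial UMIs (154) were left out. Scrublet's automatic threshold marked 44 barcodes (0.660%), so the top-scoring barcodes at a loading rate of 0.8% per 1000 barcodes, 114 in all, were removed as doublets. FLASH and NI shared 7 barcodes, CONV and NI 7, and FLASH and CONV 5.

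Cells were scaled to 10000 UMIs and clustered on 2000 variable genes, 30 principal components and 15 neighbours (Leiden, resolution 1, no integration), without 112 listed genes that include the members. The 25 clusters were named where at least 3 markers were in 10% of cells and 2-fold above other cells and an own marker was among the top 10 genes. This gave 21 classes and 3 unnamed clusters of 532 cells. Classes with at least 25 cells per library were compared, as UMIs summed per class and library over all UMIs of the class (CPM). Levels carry exact Poisson, shares exact Clopper-Pearson and ratios exact conditional binomial intervals at 95%, for counting error only. Thinning to 1000 UMIs left out 10 FLASH cells. List medians used a pseudocount of 1 CPM. The procedure was tested on simulated counts.

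All members are named. For each other list, the genes with the highest and lowest ratio were eligible for naming, at most 4 per list and comparison, and for Fos, Atf3 and Dusp1 the 5 genes with the highest correlation. A gene that this rule selects is not reported here. Counts per gene named for Ppp1r15a, Zfp36, Nfe2l2, Mafg and Crem were chosen after their values were seen. Members and lists were chosen with earlier results of these data known. Of 27998 gene identifiers, 27722 were in GENCODE M21. Software was matplotlib 3.10.9, igraph 0.11.9, pandas 2.3.3, scipy 1.17.1, numpy 2.4.6, anndata 0.12.19 and scanpy 1.11.5 under Python 3.11.15. Alternatives varied the cell filters, doublet removal, clustering, scaling, thinning, fold and UMI minimum.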

Additional observations from a re-analysis of the deposited data

Results flagged for a closer look

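Jun differed in direction between classes in both irradiated libraries. In NK-like cells FLASH over NI was 2.74 (1.18 to 6.69) and CONV over NI 3.71 (1.67 to 8.82), on 17, 21 and 10 UMIs in FLASH, CONV and NI. In adventitial fibroblast-like cells the ratios were 0.635 and 0.532, in general capillary endothelium-like cells 0.606 and 0.465, and in smooth muscle-like cells 0.499 and 0.340. The difference between classes was not tested.

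Classes with too few NI cells for the comparison also held signal of the members. Fos in alveolar type 1-like cells was 9.80 times its NI level in FLASH (1.58 to 404) and 11.7 times in CONV (1.93 to 478), on 22, 28 and 1 UMIs in 43, 32 and 11 cells. Jund in aerocyte endothelium-like cells was at 1.61 in FLASH over NI (1.02 to 2.53) and 1.83 in CONV over NI (1.17 to 2.86). In mesothelium-like cells Jund was at 2.37 (1.60 to 3.51) and 2.30 (1.64 to 3.27).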

How the results depend on the processing

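No paired analysis was possible because each group was 1 library, and leaving out a replicate could not be done for the same reason. Over 17 alternative settings, called pairs kept their direction in 493 values for FLASH over NI, 805 for CONV over NI and 269 for FLASH over CONV. In 1, 2 and 0 values it reversed. A further 33, 60 and 37 values were not available, because the class or pair was not compared under that setting. For FLASH over CONV, 9 of 18 calls were lost with a mitochondrial limit of 5% and 13 of 18 with at least 200 UMIs. Changing the fold or UMI minimum, or leaving out a class, leaves each ratio as it was. Those settings could not reverse a direction, and their values are among those kept. The reversed values were Atf3 in alveolar fibroblast-like cells, CONV over NI, at 0.978 with a mitochondrial limit of 5%, Fosl2 in NK-like cells, FLASH over NI, at 1.14, and Fosl2 in AT2-like cells, CONV over NI, at 1.42, both after thinning to 1000 UMIs. The causes were not tested. Jund stayed above NI in at least 10 classes in FLASH and 11 in CONV under every setting, and the other members were below NI in 70.6% to 84.1% of pairs in FLASH and 82.3% to 92.8% in CONV. These directions used the classes each setting gave.

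Counts moved more. Higher pairs in FLASH over NI (5) became 10 with a mitochondrial limit of 5%, 8 with 20%, 11 with no doublets removed, 11 at resolution 2, 10 with TMM scaling, 8 with a mean over cells, 12 after thinning and 3 with a 2-fold limit, and lower pairs (26) became 9 with a 2-fold limit. Higher pairs in CONV over NI (6) became 10 with a mitochondrial limit of 20%, 10 with at least 500 genes, 12 with no doublets removed, 11 at resolution 2, 10 with no minimum of UMIs and 2 with a 2-fold limit, and lower pairs (45) became 17 with a 2-fold limit. In FLASH over CONV, higher pairs (16) became 5 with a 2-fold limit. Lower pairs (2) became 5 with a mitochondrial limit of 5%, 4 with 20%, 4 with at least 500 genes, 6 with no doublets removed, 4 at resolution 0.5, 6 at resolution 2, 4 with all variable genes, 11 after thinning, 5 with no minimum of UMIs and 1 with a 2-fold limit.

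Settings chosen after seeing the data were a minimum of 200 UMIs, 2 classes left out in turn and each member's richest cell left out. With at least 200 UMIs, FLASH over NI had 3 higher and 17 lower pairs, CONV over NI 3 higher, and FLASH over CONV 5 higher and 0 lower. Without the smooth muscle-like class FLASH over CONV had 10 higher and 1 lower. Without the richest cell FLASH over NI had 9 higher. With a pseudocount of 10 CPM, 1 class median of a list, among upstream kinases and factors, turned sign. Depth limits the scarce pairs most: Jun in NK-like cells and Fosl2 in most classes rest on under 50 UMIs per library.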

Other observations

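Ciliated-like cells were too few in NI for the comparisons (91 FLASH, 98 CONV and 20 NI cells) but counted deeply enough to give levels. Fos was 1809.7 CPM in FLASH, 1307 CPM in CONV and 2580.0 CPM in NI, Jun was 1085, 892 and 1961 CPM, and Atf3 was 688, 428 and 1096 CPM. For these 3 genes CONV was lowest and NI highest. Jund was 782 CPM in FLASH, 560.2 CPM in CONV and 537 CPM in NI. Neutrophil-like cells, 22, 22 and 12 in number, had Dusp1 at 2067 CPM in FLASH, 939 CPM in CONV and 2202 CPM in NI, on 77, 47 and 68 UMIs. Mesothelium-like cells, 17, 19 and 15 in number, had Fos at 1532 CPM in FLASH, 2531 CPM in CONV and 1428 CPM in NI, and Jun at 365, 978 and 601 CPM. There CONV over NI was 1.77 (1.40 to 2.25) for Fos and 1.63 (1.12 to 2.38) for Jun, opposite in direction to most compared classes, while Atf3 was 146, 257 and 564 CPM. These levels rest on few cells and were not compared further.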
